A study of Mus musculus with 2 samples.

Results

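Cathepsin transcripts were described across the leukocytes of mouse B16-F10 melanomas. The 10 genes were taken by symbol from the 32432 genes of the deposited matrices: Ctsa, Ctsb, Ctsc, Ctsd, Ctsh, Ctsk, Ctsl, Ctss, Ctsw and Ctsz. B16-F10 is a melanoma line that grows in mice of its own strain background, and 1000 cells in Matrigel had been placed in the skin of both legs of male mice aged 8 to 12 weeks. The Trex1 iKO mice were Trex1 fl/fl-R26CreERT2-ki/wt, with both Trex1 alleles conditional. The Trex1 control mice were Trex1 wt/fl-R26CreERT2-ki/wt and so carried 1 conditional allele beside a wild-type one. All mice carried the Cre, an enzyme driven from the broadly active R26 locus and switched on by tamoxifen, so that the tumour-bearing host as a whole and no single cell type was targeted. All received 1 mg tamoxifen into the peritoneum for 3 days starting on day 5, and the harvest was on day 14. CD45+ cells were enriched, sorted and profiled by droplet sequencing of 3′ transcript ends, with 4 hashtagged samples per genotype. The labels do not say that each hashtag is 1 mouse, so p-values measure the spread between these samples, which may be in part technical. Each genotype was run as 1 pool, and its effect and that of the pool cannot be told apart. The design text asks how induced loss of Trex1, a DNA-degrading exonuclease, shapes the immune response to the tumour.

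Cathepsins are proteases of lysosomes and endosomes that are made as inactive precursors and cut to their active forms in acid compartments. Most are cysteine proteases, held in check by cystatins and stefins. Cathepsin D is an aspartic protease and cathepsin A a serine carboxypeptidase. In phagocytes they break down engulfed material. In antigen-presenting cells cathepsin S removes the invariant chain that blocks the peptide groove of MHC class II. In cytotoxic lymphocytes and neutrophils cathepsin C trims granzymes and granule proteases to their active forms. The files list these genes as ENSMUSG00000017760 (Ctsa), ENSMUSG00000021939 (Ctsb), ENSMUSG00000030560 (Ctsc), ENSMUSG00000007891 (Ctsd), ENSMUSG00000032359 (Ctsh), ENSMUSG00000028111 (Ctsk), ENSMUSG00000021477 (Ctsl), ENSMUSG00000038642 (Ctss), ENSMUSG00000024910 (Ctsw) and ENSMUSG00000016256 (Ctsz).

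Promoter windows were shown for the neighbouring genes Ctss and Ctsk, whose transcripts were among the most and the least abundant cathepsin UMIs of mono/macrophages, and for Ctsd and Ctsz, which followed different distributions over the classes. RefSeq windows on GRCm38.p6 matched 7 of the 10 genes. The files themselves were made on GRCm39, so the coordinates serve only to place these sequences. Each window is the 250 bases before the annotated start of transcription, 5′ to 3′ on the gene's strand, with motif matches in capitals.
Ctss, chr3:95526536-95526785, plus strand: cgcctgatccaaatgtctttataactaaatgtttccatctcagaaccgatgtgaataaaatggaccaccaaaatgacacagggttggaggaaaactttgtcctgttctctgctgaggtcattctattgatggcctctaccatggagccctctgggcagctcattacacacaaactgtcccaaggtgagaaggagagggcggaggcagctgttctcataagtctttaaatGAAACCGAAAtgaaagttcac
Ctsk, chr3:95498960-95499209, plus strand: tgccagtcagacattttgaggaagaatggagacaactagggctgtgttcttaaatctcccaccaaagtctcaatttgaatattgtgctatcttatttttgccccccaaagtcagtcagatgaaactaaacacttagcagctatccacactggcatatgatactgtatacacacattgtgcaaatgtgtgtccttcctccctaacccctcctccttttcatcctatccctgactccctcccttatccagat
Ctsd, chr7:142387828-142388077, minus strand: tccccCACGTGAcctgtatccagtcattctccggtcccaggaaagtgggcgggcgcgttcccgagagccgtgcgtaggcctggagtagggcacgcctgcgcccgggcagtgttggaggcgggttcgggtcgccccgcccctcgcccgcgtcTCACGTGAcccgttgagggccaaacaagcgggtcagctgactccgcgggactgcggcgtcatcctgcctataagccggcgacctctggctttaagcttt
Ctsz, chr2:174439040-174439289, minus strand: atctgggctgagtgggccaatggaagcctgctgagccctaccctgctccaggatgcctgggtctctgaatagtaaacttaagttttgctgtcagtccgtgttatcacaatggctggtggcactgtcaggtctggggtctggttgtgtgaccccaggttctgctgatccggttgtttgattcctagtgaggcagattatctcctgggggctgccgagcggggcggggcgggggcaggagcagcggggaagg
The capitals in Ctss are a match to the interferon-response type motif, GAAA and GAAA with any 2 bases between them, which begins 21 bases before the start. On either strand, 2.98% of all 32851 promoter windows hold it. Those in Ctsd mark the E-box CACGTG, found in 6.02% of windows, within the longer TCACGTG that lysosomal genes often carry, found in 3.13%. They lie 245 and 99 bases before the start. Neither Ctsk nor Ctsz matched one of the motifs searched, which also held TTCNNNGAA (7.02% of windows). A match is a run of letters and not a measured binding site.

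The matrices held 23731 barcodes, of which 22052 cells were kept. Median UMIs (counted molecules) per barcode were 12535.5 to 14221 for iKO and 5794 to 11490 for control. Cells were gated on raw UMIs of lineage markers, none of them a cathepsin, which gave 11266 myeloid cells (51.1%) and 8422 lymphoid cells (38.2%). A further 6.23% met more than 1 lineage gate and were left out, as doublets or free RNA can put a cell there. No barcode was shared between samples of a pool, and 45 occurred in both pools. Levels are given as CPM, counts per 1000000, here the UMIs of a gene for each 1000000 UMIs summed over the gated cells of a sample. With summed UMIs, more transcript per cell and more positive cells cannot be told apart.

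The cathepsins were myeloid transcripts with 1 exception. Over sums per sample, 9 of the 10 were higher in myeloid than in lymphoid cells and Ctsw, the cathepsin of cytotoxic lymphocytes, was lower. The background is high, since edgeR's quasi-likelihood test called 78% of all genes in this contrast, 39.4% as higher, so the sizes say more than the count. Ctsl, an endopeptidase, differed most, at 615 ± 187 CPM in myeloid and 23.8 ± 10.4 CPM in lymphoid cells (SD, n = 8), a log2 difference of 5.08 ± 0.16 (SE; adjusted p = 5.35e-10). The aminopeptidase Ctsh followed at 4.57 ± 0.33 log2 units. Ctsc, Ctss, Ctsz, Ctsk and Ctsb lay between 3.55 and 3.91, and Ctsa at 2.53 ± 0.10. Ctsd differed least, with 602 ± 156 CPM against 338 ± 135 CPM and a log2 difference of 1.19 ± 0.23 (adjusted p = 7.30e-04). Ctsw was at 3.49 ± 1.39 CPM in myeloid and 214 ± 69.4 CPM in lymphoid cells, a log2 difference of -5.66 ± 0.17. The median over the 10 was 3.71, against -0.01 over all genes tested.

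**Figure D1:**
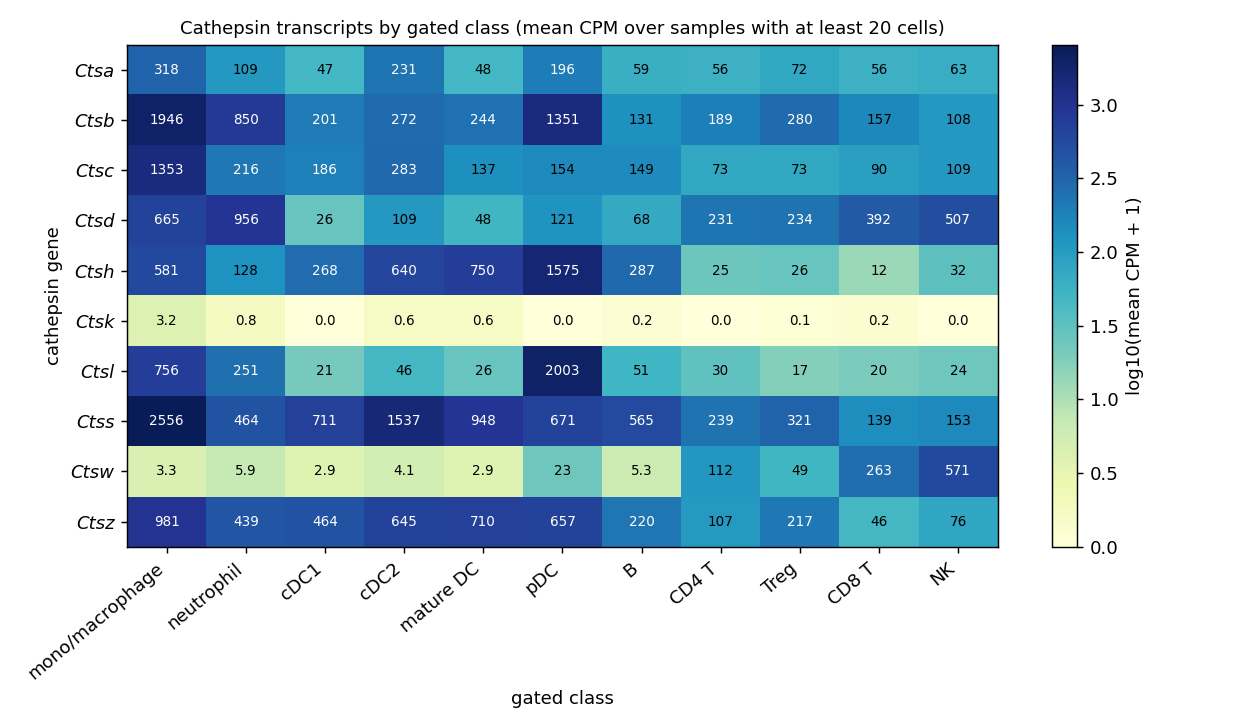
Mean CPM of each cathepsin (rows) in each gated class (columns), over samples with at least 20 cells of the class; colour is log10(mean CPM + 1). Mono/macrophages lead in 6 of the 10 rows, among them Ctss at 2556 ± 439 CPM (SD), while Ctsd is highest in neutrophils, Ctsh and Ctsl in pDCs (1 sample) and Ctsw in NK cells.

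Ctss and Ctsh, which act in antigen processing, extended from macrophages to dendritic cells and B cells. Ctss was highest in mono/macrophages, at 2039 to 3240.4 CPM, and lay above every sample of cDC2 (1537 ± 148 CPM, SD over 7 samples). Mature dendritic cells held 948 ± 108 CPM and B cells 565 ± 67.0 CPM, against 139 ± 21.6 CPM in CD8 T cells. The order was another one for Ctsh, where mature dendritic cells (750.4 ± 129 CPM), cDC2 (639.8 ± 81.4 CPM) and mono/macrophages (581 ± 29.1 CPM) overlapped in their sample ranges, and B cells held 287 ± 39.2 CPM. CD8 T cells were lowest at 11.8 ± 2.39 CPM. The contrasts between classes that follow were chosen after the levels had been seen, within samples and with the sample as a block. Ctsh was higher in mature dendritic cells than in mono/macrophages by 0.47 ± 0.09 log2 units (adjusted p = 2.24e-04), the only one of the 10 called in that direction. The other called members, 8 of 10, were lower in mature dendritic cells, with Ctsl at -4.71 ± 0.17, Ctsd at -3.62 ± 0.14 and Ctsz at only -0.32 ± 0.09, and Ctsw was not called. Of all genes, 65.3% were called in this contrast.

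In B cells against CD8 T cells, Ctsh was higher by 4.59 ± 0.13 log2 units, Ctsz, a carboxypeptidase, by 2.25 ± 0.12, Ctss by 1.97 ± 0.09, Ctsl by 1.32 ± 0.20 and Ctsc by 0.70 ± 0.12. Ctsw (-5.71 ± 0.21) and Ctsd (-2.46 ± 0.16) were lower. Ctsb was called lower too (-0.30 ± 0.12; adjusted p = 0.0406), a call that 12 of its 17 alternatives ended. Of the 9 tested members 8 were called, against 54.9% of all genes. Macrophage transcripts, given below as a percent of mono/macrophage CPM, were also higher in the B cell gate. The mean of Ctsl did not exceed their sum in either gate, but in B cells it exceeded C1qa, C1qb and C1qc alone. B cells, which present antigen on class II, held less Ctsd than any T or NK gate.

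Plasmacytoid dendritic cells carried high Ctsl and Ctsh UMIs, but their gate held only 80 cells and 1 sample with at least 20. Ctsl was 1903, 2383, 2436 and 2427 CPM across iKO 1 to 4, and 2902, 1988, 2003 and 1700.0 CPM across control 1 to 4, from 2 to 21 cells a sample. All 8 values lay above every mono/macrophage value (392 to 1174 CPM). Ctsh was 1263 to 1520.5 CPM in iKO and 1022 to 2103 CPM in control, again above all mono/macrophage samples (539 to 623 CPM). No test was made for these cells.

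Cathepsins B, D and A, the broad degradative enzymes of the lysosome, did not share 1 distribution. Ctsb, an endopeptidase, was highest in mono/macrophages (1946 ± 296 CPM), then in pDCs (1351 CPM, 1 sample) and in neutrophils (850.4 ± 253 CPM) and, among lymphocytes, in Treg cells (280.1 ± 44.3 CPM). Ctsa followed mono/macrophages (318 ± 31.6 CPM) and cDC2 (231 ± 23.9 CPM). Ctsd was highest in neutrophils (956 ± 217 CPM), whose range overlapped that of mono/macrophages (665 ± 179 CPM), and within samples it was higher in neutrophils by 0.94 ± 0.12 log2 units (adjusted p = 1.64e-06). Of the other members 8 were lower in neutrophils, from Ctsz at -0.76 ± 0.11 to Ctsc at -2.42 ± 0.17, and Ctsw was called higher (1.39 ± 0.28) at 5.94 CPM against 3.32 CPM. All genes were called at 70.6% there, with a median of -0.15. The T cell markers Cd3d, Cd3e, Cd3g and Trac also had higher means in neutrophils. Cd3d was at 27.1 CPM in iKO and 32.8 CPM in control neutrophils, against 12.6 and 8.85 CPM in mono/macrophages. The part of T cell RNA in this Ctsw difference was not tested. NK cells (507 ± 117 CPM, 4 samples), CD8 T cells (392 ± 121 CPM) and CD4 T cells (231 ± 63.4 CPM) held far more Ctsd than cDC1 (25.7 ± 5.15 CPM), mature dendritic cells (48.1 ± 12.7 CPM) or B cells (68.1 ± 23.0 CPM), with ranges apart in each of these pairs. Ctsc was a mono/macrophage transcript (1353 ± 268 CPM) and was at 216 ± 137 CPM in neutrophils, 109 ± 51.2 CPM in NK and 89.5 ± 11.9 CPM in CD8 T cells.

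Ctsw marked cytotoxic lymphocytes. NK cells held 571 ± 88.8 CPM, CD8 T cells 263 ± 56.8 CPM, CD4 T cells 112 ± 19.8 CPM and Treg cells 49.4 ± 24.0 CPM. T cells outside the CD8, CD4 and Treg gates held 191 ± 39.9 CPM. The B cell, neutrophil, mono/macrophage, cDC1, cDC2 and mature dendritic cell gates were at 2.87 to 5.94 CPM. Within samples CD8 T cells exceeded CD4 T cells by 1.30 ± 0.11 log2 units (adjusted p = 2.98e-07), beside Ctsd at 0.85 ± 0.14 and Ctsc at 0.38 ± 0.12. CD4 T cells held more Ctsz (log2 difference -1.18 ± 0.22) and Ctss (-0.70 ± 0.14), as well as Ctsh and Ctsl, whose calls did not hold under several alternatives. In all, 7 of 9 members were called, against 34.9% of all genes, and 4 were called without control sample 1. Ctsk, the collagen-cutting cathepsin of osteoclasts, reached 3.19 ± 1.25 CPM in mono/macrophages and lay below 1 CPM in every other class.

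Low levels in lymphocytes were set beside macrophage transcripts in the same cells. In CD8 T cells Ctsl stood at 2.58% ± 0.266 (SD, n = 8) of its mono/macrophage CPM and Ctsh at 2.05% ± 0.507. The summed macrophage transcripts C1qa, C1qb, C1qc, Apoe, Ms4a7 and Pf4, all 6 detected, stood at 2.63% ± 0.536. The means of Ctsl and Ctsh in CD8 T cells were no higher than that sum, but above the myeloid transcript Lyz2 (1.66% ± 0.506). What macrophage RNA contributes to them was not tested. Ctsz (4.80% ± 1.40), Ctss (5.63% ± 1.51), Ctsc (6.78% ± 1.29), Ctsb (8.15% ± 0.867), Ctsa (17.7% ± 4.66) and Ctsd (65.2% ± 34.0) had means above the sum. In B cells Ctsh was at 49.5% ± 6.67 with the summed macrophage transcripts at 13.9% ± 4.10. Ctsl there, at 7.46% ± 3.52, had a mean below that sum. It was above the means of C1qa, C1qb and C1qc alone (5.42% ± 2.63) and of Lyz2 (3.54% ± 1.41).

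**Figure D2:**
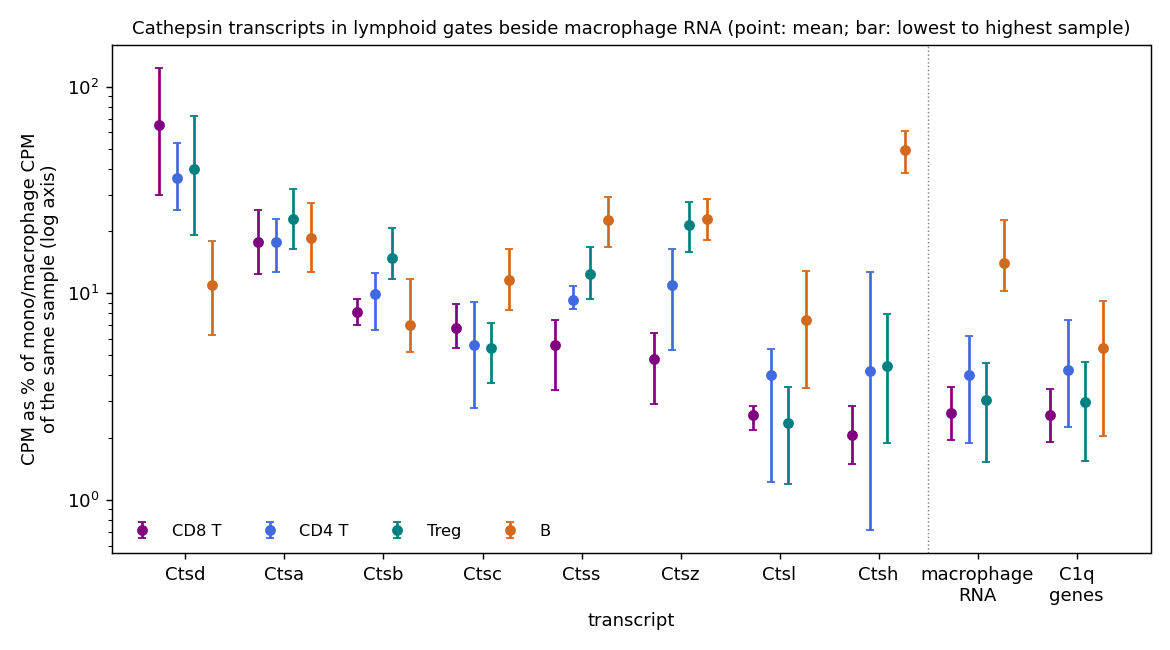
CPM of 8 cathepsins in 4 lymphoid gates as a percent of the mono/macrophage CPM of the same sample (log axis); points are means over 7 or 8 samples, and bars run from the lowest to the highest sample. To the right of the dotted line are macrophage transcripts (6 genes, and C1qa, C1qb and C1qc alone): Ctsl and Ctsh in CD8 T cells sit at their level, Ctsd and Ctsa far above it.

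Within the mono/macrophage gate the cathepsins separated subsets. Cells were split by Arg1, by Cxcl9 and Cxcl10, by C1q and by Vcan or Chil3 UMIs. Arg1 marks a tissue-remodelling macrophage state, and Cxcl9 and Cxcl10 are chemokines induced by interferon. Ctsl was 1876, 2898, 2698 and 2651 CPM across iKO 1 to 4, and 2445, 2099, 1765 and 2186 CPM across control 1 to 4 in Arg1 cells. In Cxcl9/10 cells it was 279.7, 271, 418 and 327 CPM across iKO 1 to 4, and 268, 315, 413 and 271 CPM across control 1 to 4. Every Arg1 value exceeded every Cxcl9/10 value, and the log2 difference within samples was 3.05 ± 0.12 (adjusted p = 9.05e-11). Also higher in Arg1 cells were Ctsk (4.10 ± 0.40, at 3.64 to 29.7 CPM), Ctsd (1.24 ± 0.12), Ctsb (0.86 ± 0.09) and Ctsa (0.28 ± 0.07, with an adjusted p of 0.222 when no scaling factors were used). Ctss was lower (-0.28 ± 0.07; adjusted p = 0.0038). That call was lost without the sample as a block (adjusted p = 0.0962). Ctsc, Ctsz and Ctsh were not called, with intervals of the log2 difference of -0.18 to 0.13, -0.22 to 0.04 and 0.00 to 0.39. Thus 6 of the 9 tested members were called, against 43.7% of all genes.

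**Figure D3:**
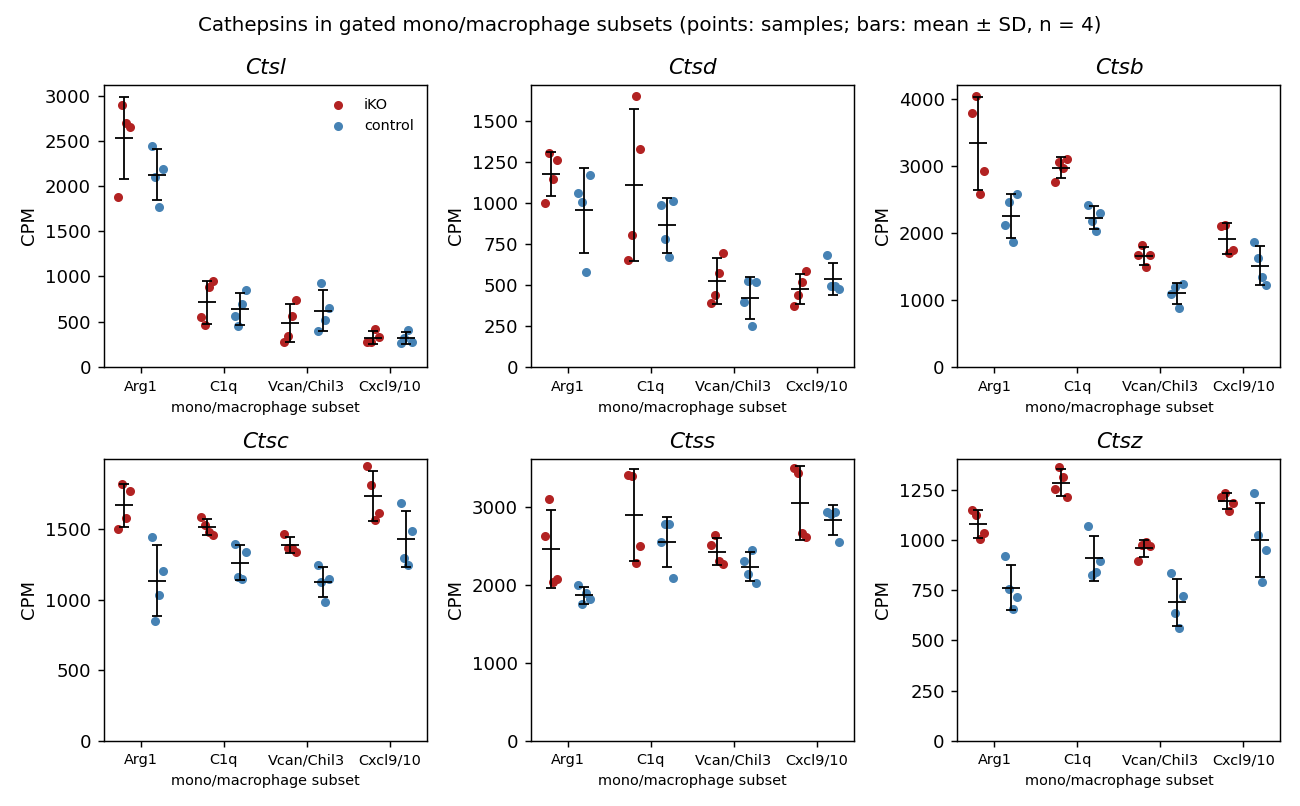
CPM of 6 cathepsins in 4 mono/macrophage subsets, by genotype; points are samples, bars mean ± SD (n = 4). Ctsl is highest in the Arg1 subset, at 1765 to 2898 CPM, while Ctsc, Ctss and Ctsz vary less between subsets.

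Among the genes of the pathway, Lgmn, the legumain that cuts cathepsin precursors, was higher in Arg1 cells by 0.95 log2 units, and 7 of 10 tested partners and substrates were lower, among them H2-DMb1 (-1.64), H2-DMa (-1.59) and H2-Eb1 (-1.29) of class II presentation. Inhibitors moved both ways, with 3 of 10 higher (Csta2 5.17, Cstb 1.17) and 5 lower (Serpina3g -3.96). Of 50 lysosomal genes 19 were higher, led by the proton-pump subunit Atp6v0d2 (2.60), and 9 lower. Of all genes tested 22.2% were higher and 21.5% lower. The median over the lysosomal list was 0.08, beside -0.03 over all genes.

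Between genotypes, Ctsz rose in iKO mono/macrophages and no cathepsin fell there by the test. Ctsz was 1157, 1177, 1124 and 1114 CPM across iKO 1 to 4, and 1006, 792, 688 and 792 CPM across control 1 to 4. All 4 iKO values lay above all control values, as for 25.8% of genes of at least 10 CPM, at 1143 ± 29.1 CPM for iKO against 819 ± 134 CPM for control (SD, n = 4 each), a log2 fold change of 0.44 ± 0.12 (SE; edgeR adjusted p = 0.0398). The call was lost when any of iKO samples 1 or 2 or control samples 2, 3 or 4 was left out (fold changes 0.36 to 0.44, adjusted p 0.0716 to 0.111), and with gate thresholds doubled (0.0507). Ctsw was also called, at 4.47 ± 0.725 CPM for iKO against 2.18 ± 0.616 CPM for control (SD, n = 4 each) (log2 fold change 1.03 ± 0.22, adjusted p = 0.0205), both very low levels, and lost its call without iKO sample 2 or control samples 2 or 4 (adjusted p 0.0613 to 0.0647). T cell markers (Cd3d, Cd3e, Cd3g and Trac, 4 of 4 detected) summed to 36.4 to 44.0 CPM in iKO and 25.0 to 28.3 CPM in control in the same cells, and Gzmb was higher there by 2.34 log2 units. The part of T cell RNA in the Ctsw difference was not tested. These 2 calls of 10 stand beside 12.3% of all genes called, so the count itself is near the background.

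The other 8 were not called in mono/macrophages. Ctsb was 2185, 2287, 2058 and 2153 CPM across iKO 1 to 4, and 1666, 1869, 1396 and 1951 CPM across control 1 to 4. Its groups did not overlap, yet the fit gave 0.30 ± 0.12 log2 units and an adjusted p of 0.137. Ctsc (0.37 ± 0.15, adjusted p = 0.127) and Ctss (0.25 ± 0.15, 0.285) overlapped between groups. Ctsh differed little, with an interval of -0.14 to 0.18 log2 units, and Ctsa with one of -0.04 to 0.27. For Ctsd the interval was wide, at -0.51 to 0.43. The median over the 10 was 0.18 and over all genes 0.00.

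For Ctsl in mono/macrophages the mix of subsets was set beside the levels. It was 392, 499, 792 and 834 CPM across iKO 1 to 4, and 693, 966, 696 and 1174 CPM across control 1 to 4, lower on average in iKO with overlapping groups (log2 fold change -0.55 ± 0.25, adjusted p = 0.17). The Ctsl-rich Arg1 subset made up, in percent of mono/macrophages, 3.33, 5.44, 9.003 and 8.27 across iKO 1 to 4, and 13.9, 29.1, 14.5 and 32.3 across control 1 to 4. All iKO shares lay below all control shares (exact permutation p = 0.0286, two-sided, the smallest that 4 against 4 samples allow, and 0.171 adjusted over 6 subsets). The share of Cxcl9/10 cells was 37.5% ± 19.3 for iKO against 15.5% ± 6.73 for control (SD, n = 4 each; exact permutation p = 0.0857, adjusted 0.257). When each sample's subset levels were weighted to 1 common mix of subsets, a calculation added after the values had been seen, Ctsl was 589.9, 755, 937 and 920.0 CPM across iKO 1 to 4, and 694, 767, 669 and 786 CPM across control 1 to 4. Its log2 difference of means went from -0.52 as measured to 0.11 (exact permutation p = 0.514). Ctsb (0.49), Ctsc (0.36), Ctsz (0.43) and Ctsw (0.77) each had groups apart at that mix. Their exact permutation p of 0.0286, the smallest possible, only restates that, and is not adjusted over the 10 genes computed. The share of all genes apart at that mix was not computed. As measured, 25.8% of genes of at least 10 CPM were apart in mono/macrophages.

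Within subsets, Ctsb rose in the Vcan/Chil3 cells, which carry monocyte genes. It was 1667, 1819, 1495 and 1672 CPM across iKO 1 to 4, and 1090.3, 1198, 882 and 1237 CPM across control 1 to 4. Every iKO sample exceeded every control sample, with groups apart for 20.2% of genes of at least 10 CPM here, at 1663 ± 133 CPM for iKO against 1102 ± 159 CPM for control (SD, n = 4 each), and the log2 fold change was 0.53 ± 0.11 (adjusted p = 0.0119). This call held in all 17 alternatives. Ctsz was called beside it (0.41 ± 0.11; adjusted p = 0.0431), at 895 to 992 CPM in iKO and 561 to 837 CPM in control, and was lost when any one of 7 of the 8 samples was left out and with a mitochondrial share of at most 5% (adjusted p = 0.0512). Thus 2 of 9 tested members were called in Vcan/Chil3 cells, against 9.4% of all genes. Macrophage transcripts summed to 356 to 1474 CPM in iKO and 1744 to 3339 CPM in control in these cells, and so moved the other way from Ctsb. Neutrophil transcripts (S100a8 and S100a9) summed to 102 to 300.2 CPM in iKO and 239.9 to 1055 CPM in control. What these differences contribute to Ctsb was not tested.

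In C1q cells 1 of 8 was called, against 2.95% of all genes: Ctsz, at 1214 to 1366 CPM in iKO and 828 to 1069 CPM in control (log2 fold change 0.44 ± 0.10, adjusted p = 0.0441, and 0.11 with the hashtag number as a block). It was lost when any sample but iKO sample 3 or control sample 1 was left out (adjusted p 0.0624 to 0.143) and with gates on UMIs per 10000 (0.101). Ctsb there was 2761 to 3112 CPM in iKO and 2029 to 2421 CPM in control, also without overlap (12.9% of genes), with 0.35 ± 0.09 log2 units at an adjusted p of 0.0537. It was called by DESeq2 (0.00652), with gate thresholds doubled (0.0336), with no scaling factors (0.0304) and without iKO sample 3 (0.0397). In Cxcl9/10 cells 1 of 9 was called, against 6.76% of all genes: Ctsw at 3.82 to 5.87 CPM in iKO and 1.03 to 2.09 CPM in control. Its log2 fold change was 1.34 ± 0.33 (edgeR adjusted p = 0.0372). The adjusted p was 0.122 with the block, 0.0737 by DESeq2 and 0.062 with gates on UMIs per 10000. It was 0.0658 to 0.139 without any one sample other than iKO samples 3 and 4. The groups were apart, as for 18.2% of genes of at least 10 CPM, a level that Ctsw did not reach. T cell markers were again beside it, at 32.1 to 41.6 CPM in iKO and 14.4 to 27.2 CPM in control. In Arg1 cells edgeR called 0 of 8, against 2.39% of all genes. There 5 had an unadjusted p under 0.05, as did 1220 of 7735 genes, and the log2 fold changes of the 8 ran from 0.22 to 0.58. DESeq2 called 3 (Ctsc, Ctsh and Ctsz), beside 302 of 15946 genes.

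**Figure D4:**
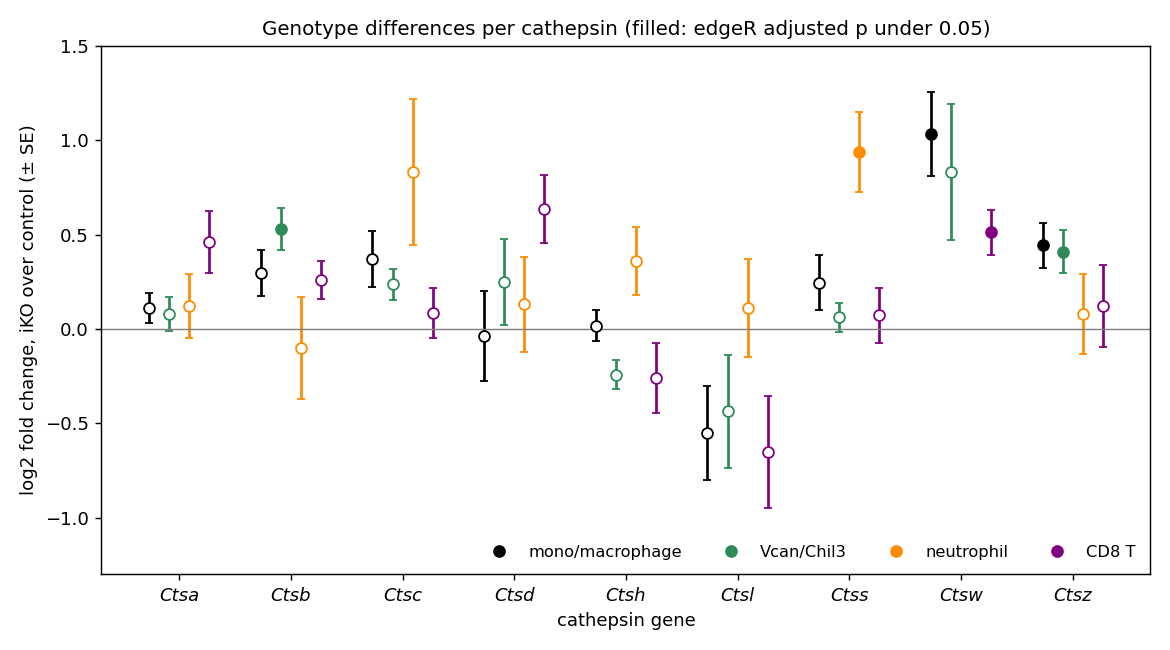
Log2 fold change of iKO over control (± SE, y axis) for 9 cathepsins in mono/macrophages, their Vcan/Chil3 subset, neutrophils and CD8 T cells; filled points passed edgeR's adjusted p under 0.05. Filled are Ctsz and Ctsw in mono/macrophages, Ctsb and Ctsz in the Vcan/Chil3 subset, Ctss in neutrophils and Ctsw in CD8 T cells.

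Ctss rose in iKO neutrophils. It was 814, 650.4, 505 and 409.5 CPM across iKO 1 to 4, and 279.9, 261, 400.1 and 392 CPM across control 1 to 4, with every iKO value above every control value (groups apart for 8.55% of genes of at least 10 CPM) and a log2 fold change of 0.94 ± 0.21 (adjusted p = 0.0383). It was the only call among 8 tested members, against 2.26% of all genes. The call was lost when any sample but iKO sample 4 was left out (adjusted p 0.059 to 0.12) with no scaling factors (0.83, adjusted p = 0.136), with no doublet filter (adjusted p = 0.0774) and with gates on UMIs per 10000 (adjusted p = 0.0846). The 4 mono/macrophage gate markers summed to 190.4 to 336 CPM in iKO and 101 to 249.95 CPM in control in these cells, while macrophage transcripts summed to 232 to 373 CPM in iKO and 421 to 849 CPM in control. Their part in the Ctss difference was not tested. Ctsd, the highest cathepsin CPM of neutrophils, was 679 to 1289 CPM in iKO and 662 to 1173 CPM in control and differed by 0.13 ± 0.25 log2 units (adjusted p = 0.862).

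Ctsw rose in iKO CD8 T cells. It was 295, 351, 265 and 324 CPM across iKO 1 to 4, and 248, 206, 189 and 228 CPM across control 1 to 4. The groups did not overlap, as for 12.4% of genes of at least 10 CPM, and the log2 fold change was 0.51 ± 0.12 (adjusted p = 0.0439). This was 1 call of 9 tested members, against 3.6% of all genes, and it was lost when any of iKO samples 1, 2 or 4 or control samples 2, 3 or 4 was left out (adjusted p 0.065 to 0.148). With the hashtag number as a block 4 of 9 were called, beside 828 of 9875 genes, against 338 of 9400 genes without it. Ctsw then had 0.52 ± 0.10 (adjusted p = 0.00892). Ctsd had 0.63 ± 0.10 (adjusted p = 0.00332, against 0.087 without the block). Ctsa had 0.46 ± 0.11 (adjusted p = 0.0329, against 0.169) and Ctsl -0.67 ± 0.18 (adjusted p = 0.0443, against 0.277). Ctsd in CD8 T cells was 541, 591, 339 and 429 CPM across iKO 1 to 4, and 372, 336, 277 and 251 CPM across control 1 to 4, highest in iKO samples 1 and 2, whose values exceeded all others, while iKO sample 3 lay within the control range.

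**Figure D5:**
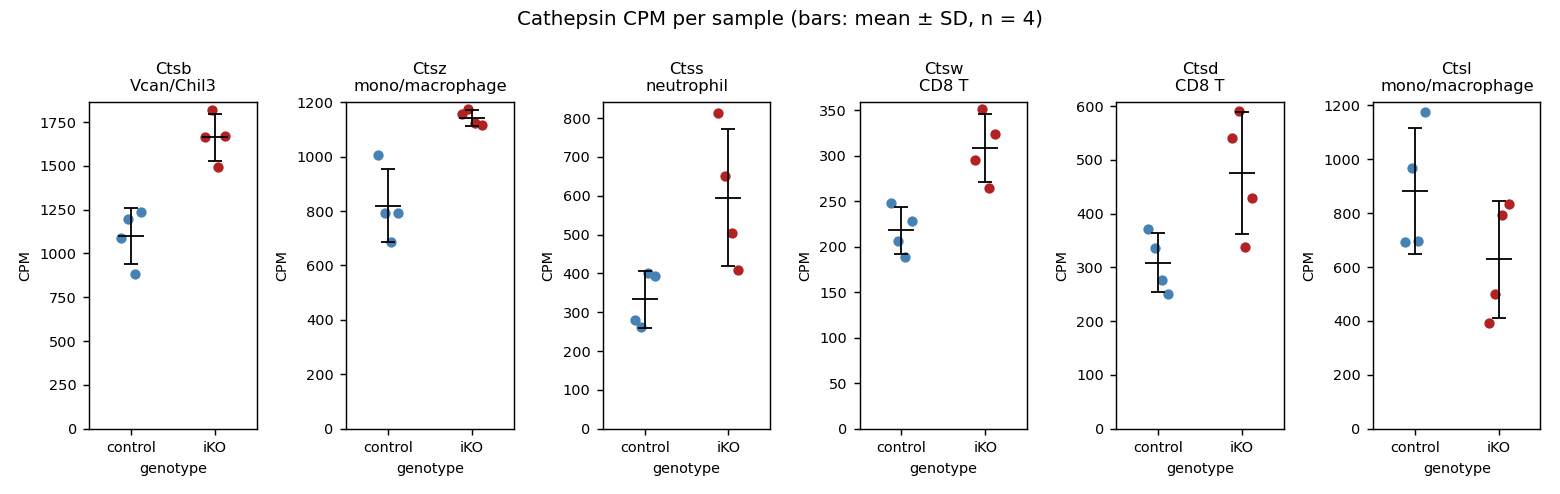
CPM (y axes, from 0) per sample in control and iKO for 6 pairs of gene and gated cells; bars are mean ± SD (n = 4). The groups do not overlap for Ctsb in Vcan/Chil3 cells, Ctsz in mono/macrophages, Ctss in neutrophils and Ctsw in CD8 T cells, and do overlap for Ctsd in CD8 T cells and Ctsl in mono/macrophages.

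Ctsl had a lower estimate in iKO in each lymphoid gate tested, without a call by the main test. Macrophage transcripts were lower too in CD8 T, CD4 T and Treg cells. In B cells their sum averaged 15.5% of mono/macrophage CPM in iKO and 12.4% in control, and C1qa, C1qb and C1qc alone 3.32% and 7.52%. The log2 fold change of Ctsl was -0.65 ± 0.30 in CD8 T cells (edgeR adjusted p = 0.277) and -0.53 ± 0.27 in B cells (0.383). In Treg cells Ctsl was 5.19, 11.9, 12.1 and 9.96 CPM across iKO 1 to 4, and 24.3, 29.4, 23.9 and 43.8 CPM across control 1 to 4. Its log2 fold change was -1.45 ± 0.35 (adjusted p = 0.068) in a fit without control sample 4, which held 17 Treg cells. CD4 T cells gave -1.11 ± 0.32 (adjusted p = 0.084). T cells outside the CD8, CD4 and Treg gates gave -1.05 ± 0.39 (adjusted p = 0.0685, and -1.13 ± 0.29 with 0.0125 under the block). Beside it, the 6 macrophage transcripts summed to 70.0 to 108 CPM in iKO and 166 to 222 CPM in control in CD8 T cells, 104 to 136 CPM in iKO and 291 to 351 CPM in control in CD4 T cells and 84.7 to 99.9 CPM in iKO and 209 to 329 CPM in control in Treg cells. As a percent of mono/macrophage CPM, Ctsl was at 4.02% ± 1.30 in CD4 T cells and 2.34% ± 1.00 in Treg cells. The summed macrophage transcripts were at 4.01% ± 1.41 and 3.05% ± 1.11 there. The part of macrophage RNA in these Ctsl differences was not tested.

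Elsewhere calls were few. Those other T cells had 1 call of 9, Ctsz, at 156, 139, 91.9 and 178 CPM across iKO 1 to 4, and 61.1, 73.6, 95.2 and 113 CPM across control 1 to 4 (log2 fold change 0.69 ± 0.20, adjusted p = 0.025). The groups overlapped, leaving out iKO sample 1 or control samples 1 or 2 ended the call (adjusted p 0.0624 to 0.0818), as did gates on UMIs per 10000 (0.31 log2 units, adjusted p = 0.349), and 23.4% of all genes were called there. Without the block edgeR called 0 of 8 in CD4 T cells (2.57% of all genes), 0 of 9 in Treg (1.25%), 0 of 8 in B cells (4.08%), 0 of 8 in cDC2 (0.0298%, fitted without iKO sample 1) and 0 of 8 in mature dendritic cells (0.64%). At an unadjusted p under 0.05 stood 1, 4, 2, 3 and 4 of them. Of all genes 795 of 5442, 856 of 6705, 415 of 2938, 574 of 6719 and 766 of 6408 did, in the same order. DESeq2 called Ctsh in mature dendritic cells, beside 105 of 15387 genes, and no member in the others. Ctsh in mature dendritic cells was 819 to 881 CPM in iKO and 582 to 789 CPM in control, without overlap (6.03% of genes), and 0.42 ± 0.12 log2 units (edgeR adjusted p = 0.141). Over the 9 classes tested the log2 fold change of Ctsz ran from 0.08 ± 0.21 in neutrophils to 0.69 in those other T cells. NK cells, cDC1 and pDCs had too few samples with 20 cells for a test. Over all kept cells 0 of 10 were called (2.53% of all genes), with none at an unadjusted p under 0.05 (2891 of 13459 genes) and none by DESeq2 (1282 of 22283 genes). Over all gated lymphoid cells 0 of 9 were called (3.92% of all genes). There 4 had an unadjusted p under 0.05, as did 2943 of 11131 genes, and DESeq2 called Ctsl, beside 1043 of 20089 genes. Under the block 4 were called (Ctsa, Ctsd, Ctsl and Ctsw), beside 2216 of 11707 genes. Over all myeloid cells Ctsz and Ctsw were called, 2 of 10 (13.5% of all genes). DESeq2 called 5 there, adding Ctsa, Ctsb and Ctsc, beside 2368 of 20499 genes. The block added Ctsb, beside 1418 of 12849 genes called. Class shares behind these pooled sums were unequal. Neutrophils were 1.21% to 5.24% of kept cells in iKO and 8.89% to 18.0% in control. They held less Ctsa, Ctsb, Ctsc and Ctsz than mono/macrophages, and more Ctsw. CD8 T cells were 10.0% to 41.2% in iKO and 4.80% to 21.4% in control, and B cells 0.629% to 4.13% and 1.99% to 17.5%. What the class mix contributes to the pooled calls was not tested.

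Whether the genotype difference itself differed between mono/macrophages and CD8 T cells was tested as an interaction. None of the 10 was called, against 0.239% of all genes, and none had an unadjusted p under 0.05 in edgeR or a call in DESeq2. Of all genes 1802 of 12996 had such a p in edgeR, and DESeq2 called 258 of 21007. For Ctsz the difference between the log2 fold changes was 0.29 ± 0.25, with an interval of -0.20 to 0.78. For Ctsd it was -0.72 ± 0.37 (-1.44 to 0.01), and for Ctsb 0.00 ± 0.13 (-0.26 to 0.26). For Ctsw, called in both, it was 0.46 ± 0.23 (0.00 to 0.91; adjusted p = 0.408). The Ctsz and Ctsw calls in these gates are therefore not shown to belong to 1 cell type. Subsets and neutrophils were not part of this test.

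Other genes of the pathway, from lists chosen with earlier results known, moved in part with the cathepsins. In iKO mono/macrophages 6 of 50 lysosomal genes rose and none fell, beside 6.79% of all genes higher and 5.53% lower, among them the acid phosphatase Acp2 (0.65), the lysosomal progranulin Grn (0.50) and the membrane protein Lamp2 (0.48). In Vcan/Chil3 cells 8 of 49 rose, Grn (0.59) and Lamp2 (0.50) again and the proton-pump subunit Tcirg1 (0.42), and Cd63 fell (-1.24), beside 5.47% of all genes higher and 3.93% lower. Of the inhibitors 2 of 11 fell in mono/macrophages, the stefins Stfa2l1 (-2.52) and Csta2 (-1.75). Stfa2l1 was higher in neutrophils than in mono/macrophages by 9.03 log2 units, and neutrophil shares were lower in iKO, as given above. Csta2 was higher in Arg1 than in Cxcl9/10 cells by 5.17, and Arg1 shares were lower in iKO. What neutrophil RNA and the subset mix contribute to these falls was not tested. Partners and substrates split in Vcan/Chil3 cells, where 2 of 11 rose (Gzmb 2.12 and Prf1 2.10) and 6 fell, among them the class II chains H2-Eb1 (-1.31), H2-Aa (-1.27) and H2-Ab1 (-1.19). In the same cells the 4 T cell markers summed to 38.2 to 48.9 CPM in iKO and 26.7 to 31.4 CPM in control, and their part in the Gzmb and Prf1 differences was not tested. In CD8 T cells 0 of 45 lysosomal genes and 0 of 8 inhibitors were called. The other cathepsins listed (Ctse, Ctsf, Ctsg, Ctso and Ctsll3) gave no genotype call in mono/macrophages, with 3 of 5 tested. Over all myeloid cells, again with 3 tested, Ctso was called higher (0.41 ± 0.11, edgeR adjusted p = 0.0422). Ctse was called lower (-1.09 ± 0.22, adjusted p = 0.0166), beside 13.5% of all genes called. What the class mix contributes to these calls was not tested. The medians in mono/macrophages were 0.16 over the lysosomal list and 0.00 over all genes.

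Likeness was described by Pearson's r of log2 CPM over 72 profiles of sample and class, which share libraries and are not independent. Ranked were genes with a mean of at least 10 CPM over these profiles, 7794 before the gate markers were left out. No T, NK, B or myeloid gate marker could therefore be named. Ctss was most like Ctsz (r = 0.91) and then Rassf4 and Ifi30, the last a thiol reductase of antigen processing. Ctsh was most like Ly86, H2-Aa and Prcp (r = 0.94, 0.92 and 0.91). Ctsw was most like Nkg7 (0.93), Ctla2a (0.92) and Ms4a4b (0.92), genes of T and NK cells. Ctsl was most like Plaur (0.89) and Lyz2 (0.86), Ctsb most like the proton-pump subunit Atp6v0c (0.88), Ctsc most like Mtpn (0.86) and Ctsa most like Pitpna (0.84). Among the cathepsins, Ctsd had r = 0.53 with Ctsb, 0.46 with Ctsl, 0.43 with Ctsa, 0.39 with Ctsw and 0.21 with Ctsc, and was negative with Ctsh (-0.40), Ctss (-0.22) and Ctsz (-0.19). Ctsw was negative with the other 7, down to -0.85 with Ctsh. In the GENCODE M21 annotation, 34.4% of Ctsd's exon bases lie in Gm49369 on the same strand, a gene with 0 counts here, and none of its last 300 exon bases do.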

How the data were processed

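Single-cell RNA of sorted CD45+ cells was counted in 8 hashtagged samples, 4 per genotype. The authors deposited UMI counts, whole numbers for each gene and barcode, and the file headers name Cell Ranger 7.1.0. The submitters' processing notes name GRCm39. How introns were treated and hashtags assigned is not given in the sources used here. Cells with at least 300 genes and at most 10% mitochondrial counts were kept (1241 removed). Scrublet in scanpy 1.11.5 (expected rate 0.06) scored doublets, and 438 cells (1.95%) over 0.25 were removed. Hashtags and spike-ins were left out. Sample totals were 17111065 to 96457227 UMIs.

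Gates used at least 3 UMIs over T, B, mono/macrophage, dendritic or pDC markers and at least 2 over NK or neutrophil markers. Counts were summed per sample and gate, for sums of at least 20 cells and at least 3 samples per genotype. edgeR 4.0.16 (R 4.3.3; TMM, filterByExpr, quasi-likelihood test, Benjamini-Hochberg over all genes of a fit, threshold 0.05) was the main test. SE is the log2 fold change over the root of F, and intervals are approximate 95% ones from it. No scaling factor lay outside 0.73 to 1.22. The script was tested on simulated data. Alternatives were RLE factors, no low-count filter, DESeq2 1.42.0, other gates and filters, a replicate block and leaving out each sample. The 10 genes were named by rule, all of them, and of each other list up to 3 called genes per direction. Members and lists were chosen with earlier results of these data known. Replicates of a group differed beyond counting noise (chi-square over its degrees of freedom, 8.19 to 230.3), so none was a duplicate. Hashtag numbers come from the sample files. Same-numbered samples correlated in their deviations from the group means at 0.14 to 0.53 over whole samples and 0.11 to 0.52 in CD8 T cells, but at -0.05 to 0.23 in mono/macrophages. Differently numbered samples correlated at -0.58 to 0.58 over whole samples, -0.48 to 0.51 in CD8 T cells and -0.28 to 0.28 in mono/macrophages. The labels do not say that equal numbers mark anything shared. The block is given only as an alternative, beside a result where it changes the call.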

Additional observations from a re-analysis of the deposited data

Results flagged for a closer look

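In groups of 4 samples, a value was singled out where its gap to the nearest other sample, as a share of the group's range, passed Dixon's critical value. This held for 7 of 165 groups, and chance gives about 1 in 20. In gated classes, Ctsl in CD8 T cells was 33.1 CPM in control sample 4, with the other control samples at 19.2 to 20.9 CPM. Ctsh in CD4 T cells was 76.2 CPM in iKO sample 2, with the others at 4.08 to 14.4 CPM. B cells of control sample 1 held 85.4 CPM of Ctsl, against 48.6 to 54.6 CPM. In mature dendritic cells of control sample 1, Ctsh was 789 CPM, with the others at 582 to 608 CPM, and all 4 lay below the iKO values. In the mono/macrophage subsets, Ctsa in Arg1 cells was 332 CPM in control sample 4, against 286 to 294 CPM. Cxcl9/10 cells held 684 CPM of Ctsd in control sample 1, against 472 to 494 CPM, and 2547 CPM of Ctss in control sample 4, the lowest, against 2907 to 2944 CPM.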

How the results depend on the processing

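Over 71 gene results and 1207 alternatives, 1100 kept direction and side of the threshold, 88 lost the call, 18 gained one and 1 reversed. At the common mix of subsets, a call meant an exact permutation p under 0.05 with no adjustment. By that rule Ctsb and Ctsc in mono/macrophages counted as gained. The reversal was Ctsl in mono/macrophages, a log2 difference of means of 0.11 at the common mix against -0.52 as measured (-0.55 in edgeR). The 10 calls between myeloid and lymphoid cells held in every alternative run. The count of genotype calls over the tested classes was 5, and was 11 with no low-count filter, 9 with the replicate block and 0 to 6 when each sample was left out. Within mono/macrophage subsets it was 4, and was 7 with DESeq2, 2 with the replicate block, 2 with gates on UMIs per 10000 and 1 to 6 when each sample was left out. The count for CD8 against CD4 T cells was 7, and 4 to 7 when each sample was left out. The cause of these shifts was not tested. Few cells and UMIs limit NK cells, cDC1, pDCs and the genes below 10 CPM.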
